A study of Mus musculus with 34 samples.

Results

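Megabase windows of the mouse autosomes were examined as units of coverage away from gene ends. A window is 1 Mb of chromosomes 1 to 19 counted from the first base, and its level was read from bins away from gene ends alone. Bins of 1 kb entered if they lay over 5 kb from either end of every protein-coding gene of GRCm38, so the middle of a long gene stayed in while gene starts and ends were left out. Of 2473 autosomal windows, 2423 held at least 1 such bin and 2400 held at least 200 and were used. With chromosome X the whole table has 2645 windows. The rule for windows uses position alone, while bins at 0 in all libraries and 9 bins of very high density were left out by their counts. Windows or steps picked by size are given as descriptions.

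The cells were C2C12, an established mouse myoblast line that fuses into muscle fibres. In chromatin integration labelling, antibodies on fixed cells bring a DNA probe to their target, a transposase inserts the probe close by, and the adjoining sequence is transcribed and read. H3K4me3 was stained together with CTCF in 10000 and in 1000 cells, and H3K27ac together with Pol2S2P in 1000 and in 100 cells, with 3 libraries per target and cell number. Single stainings, with 2 libraries each, were made for CTCF in 10000 cells and for Pol2S2P in 1000 cells, which gives 28 libraries in 10 groups. All groups share the same line, and no treatment is named in the labels. Whether replicates are separate cultures is not stated in the labels, and p-values therefore rest on a spread between libraries that may be technical.

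Each of these targets has its own geography. H3K4me3 marks the starts of active genes, and CTCF is a zinc-finger protein that binds DNA motifs and anchors chromatin loops. H3K27ac marks active enhancers and gene starts, and Pol2S2P is RNA polymerase II in its elongating form, spread along gene bodies. A transposase-based assay also inserts into open chromatin away from the antibody, and an unequal number of copies of a chromosome segment changes the counts of every target there by the same factor. No library without an antibody is among those analysed, so the number of copies was not measured, and target signal, open chromatin and copies cannot be told apart from one track alone.

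Eligible bins made up 80.9% of autosomal bins. They held 54.3% to 59.2% of the counts of H3K4me3 libraries, 75.4% to 76.9% for CTCF, 79.3% to 79.7% for H3K27ac, 76.1% to 76.7% for dual Pol2S2P and 68.9% to 69.3% for single Pol2S2P. The eligible counts per library ran from 404722 in H3K4me3 at 1000 cells to 4913258 in single CTCF at 10000 cells. A window's level is its count per eligible bin divided by the library's mean per eligible autosomal bin, given as times the mean or as log2 (0 is the mean). Over the 26 pairs of replicates, the correlation of levels across the 2400 windows ran from 0.976 to 0.997.

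Most of the relief was common to all 4 targets. The levels of all 4 targets, each the mean of its dual groups, lay above the mean in 838 windows (34.9%) and below it in 1066 (44.4%), and in 496 (20.7%) the targets took different sides. In 1713 windows (71.4%) all 28 libraries lay on one side of the mean, 730 above and 983 below. All 28 were over 2-fold above the mean in 45 windows and more than 2-fold below it in 378. Across the 2400 windows the correlation of levels was 0.966 between H3K4me3 and Pol2S2P, 0.951 between H3K4me3 and CTCF, 0.943 between H3K27ac and Pol2S2P, and lowest, at 0.916, between CTCF and H3K27ac. These are descriptions over windows that share gene content, mappability and libraries. The mean of the 4 targets accounted for 95.2% of the variance of their levels. Each target is part of that mean, so this share would be well above none even for unrelated targets.

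Neighbouring windows were alike in the common level and less so in the differences between targets. Across 2376 pairs of adjacent windows the correlation was 0.53 for the mean of the 4 targets, 0.20 for H3K4me3 minus CTCF and 0.26 for H3K27ac minus Pol2S2P. At a distance of 5 windows these were 0.13, 0.04 and 0.07. The longest run of windows with all 28 libraries above the mean covered 16 windows of chromosome 11, from 94 to 110 Mb, which hold 400 protein-coding genes and averaged 2.21 times the mean. The next 2 lay on chromosome 15, from 75 to 87 Mb (12 windows, 2.27 times) and from 95 to 104 Mb (9 windows, 2.46 times). The longest run below the mean covered 15 windows of chromosome 13, from 75 to 90 Mb, with 31 genes and 0.428 times the mean. Runs of at least 10 windows were more often below the mean, with 13 of 378 runs against 2 of 356 above it. More windows lay below the mean in all 28 libraries than above it (983 against 730).

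The level climbed with the number of protein-coding genes in the window, although bins near gene ends were left out. Windows without a coding gene (268) had a mean log2 level of -1.40 ± 0.157 for H3K4me3, -1.32 ± 0.055 for CTCF, -1.28 ± 0.069 for H3K27ac and -1.34 ± 0.070 for Pol2S2P (SD over 6 dual libraries each). Windows with 1 to 5 genes (949) averaged -0.57, -0.45, -0.51 and -0.53, and those with 6 to 20 genes (944) 0.21, 0.22, 0.06 and 0.18, in the same order of targets. In the 239 windows with over 20 genes H3K4me3 reached 0.58 ± 0.036, CTCF 0.40 ± 0.010, H3K27ac 0.21 ± 0.012 and Pol2S2P 0.40 ± 0.010. The 44 windows with at least 10 olfactory or vomeronasal receptor genes, chemosensory families that are silent outside sensory neurons, stood apart from other gene-rich windows with -0.67 ± 0.047, -0.81 ± 0.041, -0.96 ± 0.060 and -0.88 ± 0.052. Gene class accounted for 34.5% of the variance of levels over windows for H3K4me3 but 19.7% for H3K27ac, as a description.

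**Figure D1:**
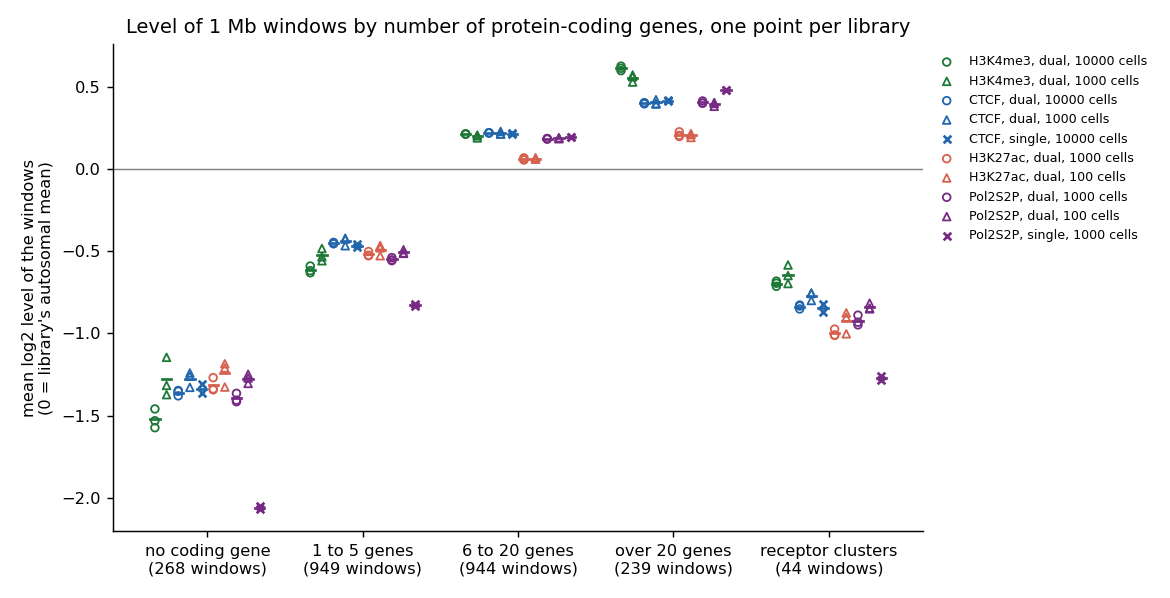
Mean log2 level of the windows of each gene class (vertical axis, 0 is the library's autosomal mean), one point per library with a bar at the group mean; colours mark targets and crosses mark single stainings. Levels climb from no coding gene to over 20 genes in all 10 groups, receptor clusters lie below the mean, and single Pol2S2P falls lowest in windows without a gene, at -2.06.

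The targets of a pair followed gene content to different degrees. H3K4me3 was above CTCF by 0.18 (log2) in windows with over 20 genes, and was 0.12 lower in windows with 1 to 5 genes (exact two-sided stratified permutation test over 12 libraries, adjusted p = 0.00625 for both). It was 0.13 higher in receptor clusters (adjusted p = 0.00625 by the same permutation test), but 0.07 with bins over 20 kb from gene ends, where the exact permutation test no longer passed (adjusted p = 0.0938). The difference of -0.08 in windows without a gene did not pass (adjusted p = 0.12, exact permutation test). H3K27ac was below Pol2S2P by 0.19 in windows with over 20 genes and by 0.12 in those with 6 to 20 (adjusted p = 0.00833 for both, exact permutation test). Replicate numbers pair the H3K27ac and Pol2S2P libraries, and with these pairs as blocks 0 of the 5 classes passed an exact sign-flip test, whose smallest unadjusted p with 6 pairs is 0.03125.

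Whole chromosomes stood at different heights, and the same 3 were above the mean in every library. The median window of chromosome 11 lay at a log2 level of 0.66 (mean of the 4 targets), that of chromosome 15 at 0.56 and that of chromosome 10 at 0.30, and all 28 libraries were above 0 on each of them. Chromosome 14 was lowest at -0.67, followed by chromosome 12 at -0.56, chromosome 7 at -0.47 and chromosome 13 at -0.43, with 0 of 28 libraries above 0. Chromosome accounted for 9.78% of the variance of the mean level over windows and gene class for 30.04%.

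Since chromosomes differ in gene content, the level was also taken relative to the median of all windows of the same gene class, an adjustment chosen after the data were seen. Chromosome 15 then stood at 0.73, or 1.66 times its peers, with all 28 libraries between 0.66 and 0.79. Its values were 0.73 ± 0.03 for H3K4me3, 0.70 for CTCF, 0.76 for H3K27ac and 0.71 for Pol2S2P, so that the 4 targets spanned 0.055. They spanned no more than that on chromosomes 1 (0.027), 4 (0.043), 8 (0.043) and 11 (0.055), and up to 0.163 on chromosome 14. Chromosome 15 ranked highest of the 19 among windows with 1 to 5 genes and with 6 to 20 genes, and second in the other 2 classes. Chromosome 11 came next at 0.47 (1.39 times; libraries 0.42 to 0.52), then chromosome 10 at 0.42 (1.34 times; 0.33 to 0.50) and chromosome 16 at 0.20 (1.15 times; 0.13 to 0.29). At the low end, chromosome 7 stood at -0.53 (0.693 times; -0.63 to -0.39), chromosome 13 at -0.32 (0.801 times), chromosome 9 at -0.27 and chromosome 14 at -0.25, again with 0 of 28 libraries above 0. The classes count genes alone, so receptor clusters are set against other windows with as many genes. Chromosome 7 has gene-rich windows of low level, as at 23 Mb (24 genes, log2 level -2.02). It ranked 19 in the classes without a gene, with 1 to 5 and with 6 to 20 genes, and 18 in that with over 20. The part of such clusters in its level was not tested. Chromosomes 1, 3, 16, 17 and 18 had a level below 0 before the adjustment and above it after, at 0.08, 0.01, 0.20, 0.003 and 0.03.

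**Figure D2:**
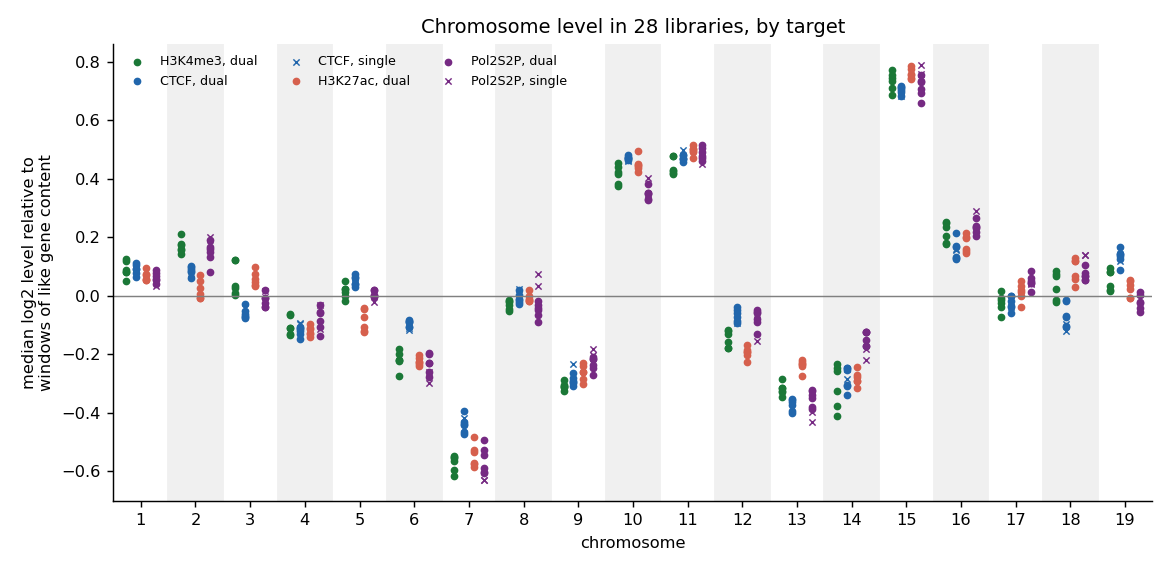
Median log2 level of each chromosome's windows relative to windows of like gene content (vertical axis) for chromosomes 1 to 19, one point per library, coloured by target, crosses for single stainings. All 28 points of chromosome 15 lie between 0.66 and 0.79 and all of chromosome 7 between -0.63 and -0.39, where the dual CTCF libraries lie above those of the other targets.

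Targets also differed at the scale of a chromosome. On the unadjusted level 11 of 19 chromosomes differed between H3K4me3 and CTCF, most of all chromosome 12 by -0.32, and 16 between H3K27ac and Pol2S2P, most of all chromosome 14 by -0.28 (adjusted p = 0.0119 and 0.0095, exact stratified permutation tests). With same-numbered libraries of a dual staining as blocks, 0 of 19 passed for H3K4me3 against CTCF and 12 for H3K27ac against Pol2S2P. This exact sign-flip test has the lowest possible p given above for gene classes, which passes only if many chromosomes reach it. On the adjusted level H3K4me3 was below CTCF by 0.13 on chromosomes 6 and 7 and above it by 0.11 on chromosome 3 (adjusted p = 0.0106 each, exact stratified permutation test over 12 libraries). H3K27ac was below Pol2S2P by 0.14 on chromosome 14 and by 0.12 on chromosomes 2 and 12, and above it by 0.11 on chromosome 13 and 0.10 on chromosome 10 (adjusted p = 0.00947 each, exact permutation test). On chromosome 15 the differences were 0.03 and 0.05, and both passed (adjusted p = 0.0475 and 0.0173, exact stratified permutation tests). Before the adjustment they were -0.055 and 0.077 (adjusted p = 0.0119 and 0.0095, same test).

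Steps along a chromosome were sought as the difference between the median level of the 10 windows after a boundary and of the 10 before it. A change of at least 0.3 (log2) was common, at 1394 of 2120 boundaries (65.8%). Keeping the local extremes left 90 steps, of which 83 were shared, meaning that all 4 targets had the sign and at least 50% of the size, 49 upward and 34 downward. Their median size was 1.20 and every one of the 90 had a single sign in all 28 libraries. Since the steps were picked for their size, these values describe and do not test them.

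The largest step was an upward one of 2.46 on chromosome 7 at 18 Mb, between windows that hold the pregnancy-specific glycoprotein and Ceacam genes (Psg16, Ceacam5) and windows from the splicing regulator Nova2 onwards. It was 2.67 in H3K4me3, 2.32 in CTCF, 2.25 in H3K27ac and 2.35 in Pol2S2P, and 1.93 to 2.89 over the 28 libraries. The change was not sharp in single windows. Before the boundary, the window at 16 to 17 Mb lay at 0.73. After it, that at 18 to 19 Mb lay at -1.19 and that at 23 to 24 Mb at -2.02. No window between 20 and 23 Mb was used, so the windows after the boundary reach across a gap. The largest fall, of 2.42 at 95 Mb of chromosome 1, led from windows with 131 genes, the last of which hold the immune checkpoint receptor gene Pdcd1, into 10 windows with 14. At 103 Mb of chromosome 8 the level climbed by 2.32 beyond Cdh11, a cadherin gene. At 13 Mb of chromosome 15 it fell by 2.11, from windows ending with Drosha, the nuclear microRNA processing enzyme, to a stretch beginning with Cdh6. These steps run with gene density: the higher side held more genes in 79 of 90 steps, and the step correlated with the log2 ratio of gene numbers at 0.75 (n = 90 steps, a description).

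Steps chosen in one pair of targets were then measured in libraries of the other pair. Of 87 steps chosen in H3K4me3 and CTCF, 87 had the same sign in H3K27ac and Pol2S2P and passed an exact two-sided sign-flip test over 8 stainings, adjusted over the steps; the median size was 1.05 times that where they were chosen. Of 91 steps chosen in H3K27ac and Pol2S2P, 91 passed in H3K4me3 and CTCF by the same exact test, at a median of 0.915 times. The sign held in all 14 held-out libraries at 85 of the 87 and 89 of the 91. Levels of targets from different pairs correlate at 0.92 to 0.97 over windows, in the same line and with the same gene content. This outcome was therefore largely given before the test. How many of all 2120 boundaries pass the same test was not computed, so the counts set the chosen steps apart from no others.

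**Figure D3:**
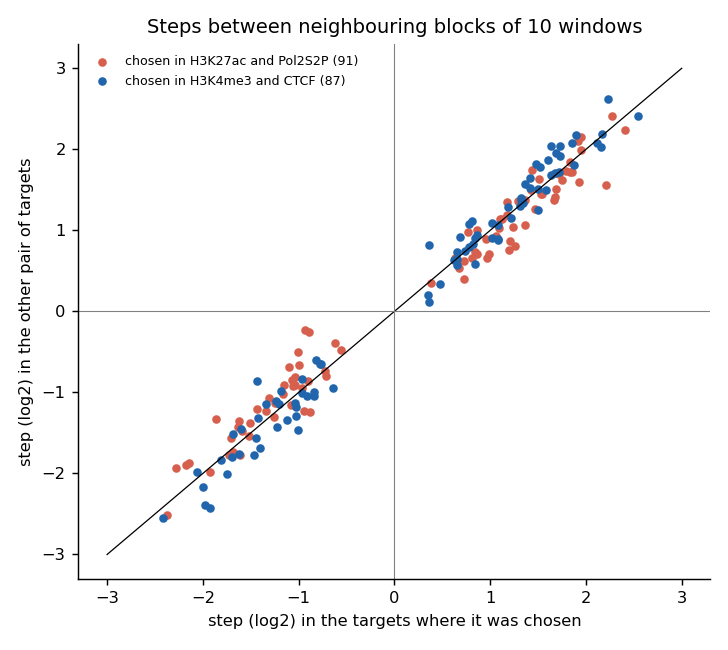
Size of each step (log2) in the pair of targets where it was chosen (horizontal axis) against its size in the other pair (vertical axis), one point per step, with the line of equal size. All 87 steps chosen in H3K4me3 and CTCF and all 91 chosen in H3K27ac and Pol2S2P keep their sign.

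Step sizes nonetheless differed between targets of a pair. By the exact stratified permutation test adjusted over the 90 steps, 41 differed between H3K4me3 and CTCF and 50 between H3K27ac and Pol2S2P. The median absolute difference was 0.18 in both pairs, against a median step of 1.20. The largest lay on chromosome 10 at 12 Mb, where the step was 0.85 larger in H3K27ac than in Pol2S2P by the mean over libraries (1.34 against 0.43 in the averaged levels; adjusted p = 0.0105, exact permutation test). On chromosome 2 at 133 Mb the fall was 1.55 in H3K4me3 against 0.86 in CTCF, a difference of -0.69 (adjusted p = 0.0161, exact permutation test). On chromosome 13 at 111 Mb H3K27ac fell by 1.11 and CTCF by 0.08. With same-numbered libraries as blocks 0 of the 90 passed in either pair. The exact sign-flip test over 6 pairs has the lowest possible p given above for gene classes. After adjustment over the steps it passes only if many steps reach it, so this 0 does not decide whether sizes differ.

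With the level relative to windows of like gene content and 30 windows on each side, both chosen after the data were seen, 24 steps remained, 22 of them shared. The largest lay on chromosome 7 at 44 Mb, where the average of the 4 targets climbed by 1.27 from -1.77 to -0.50, with every library between 0.70 and 1.59. In single targets this climb was 0.86 in H3K4me3, 1.11 in CTCF, 1.08 in H3K27ac and 1.27 in Pol2S2P. It was smaller in H3K4me3 than in CTCF (difference -0.25, adjusted p = 0.024, exact stratified permutation test). It was also smaller in H3K27ac than in Pol2S2P (-0.12, adjusted p = 0.03, same test). The stretch before this boundary, from 11 to 44 Mb, spans the boundary at 18 Mb named above. It holds 606 genes, against 235 in the 30 windows after it. Gene classes do not set apart gene clusters of low level, and their part in this step was not tested. Others, on the same average, were climbs of 0.85 on chromosome 12 at 39 Mb, 0.76 on chromosome 17 at 62 Mb and 0.69 on chromosome 1 at 33 Mb, and falls of 0.84 on chromosome 4 at 124 Mb and 0.73 on chromosome 16 at 59 Mb. In single targets the fall on chromosome 4 ran from 0.58 in CTCF to 0.87 in H3K27ac, with a median library at -0.65. On chromosome 15 the level climbed from 0.47 to 0.96 at 31 Mb and fell from 1.05 to 0.41 at 65 Mb, so that 31 to 65 Mb was its highest stretch on this scale. The fall at 65 Mb was not shared, with 0.20 in CTCF against 0.54 to 0.77 in the other targets.

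The highest single windows, as a description, came mostly from chromosome 15. Of the 10 highest by the mean of the 4 targets, 7 lay there, between 3.34 and 4.42 times the mean. The highest, from 77 to 78 Mb, holds the splicing factor gene Rbfox2, the non-muscle myosin gene Myh9 and the myoglobin gene Mb. Its dual libraries ran from 4.03 to 4.98 times the mean in H3K4me3, 3.37 to 3.49 in CTCF, 5.34 to 5.86 in H3K27ac and 4.22 to 4.58 in Pol2S2P, so that no library of any target fell below 3-fold. The second, from 102 to 103 Mb with Atf7, Sp1 and the separase gene Espl1, stood at 4.15 times. Outside chromosome 15 the list had a window of chromosome 4 (88 to 89 Mb, with Focad, Mllt3 and Hacd4), one of chromosome 19 and one of chromosome 10.

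The 10 lowest windows, between 0.066 and 0.152 times the mean, lay on chromosomes 14, 12, 7 and 4. Most of their genes have only provisional names, and the others include vomeronasal receptors (Vmn2r43 to Vmn2r45) and the skin T-cell ligand genes Skint5 and Skint6. In these windows 326 to 744 bins were at 0 in all 28 libraries, and 210 to 592 were eligible, against 400 to 979 eligible in the 10 highest. The part of mappability in these levels was not tested.

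Target-specific differences appeared on top of the common relief. Of the 2400 windows, H3K4me3 was higher than CTCF in 688 (28.7%) and lower in 965 (40.2%) by edgeR's quasi-likelihood test over 12 libraries, and 702 (29.2%) also differed by at least 25%, taken as the larger level over the smaller. H3K27ac was higher than Pol2S2P in 641 (26.7%) and lower in 969 (40.4%), 761 (31.7%) of these by at least 25%. These tests leave out the pairing of same-numbered libraries. With such pairs as blocks, edgeR called 1640 windows for H3K4me3 against CTCF and 1672 for H3K27ac against Pol2S2P. Only 9 windows reached 2-fold between H3K4me3 and CTCF. The excess of lower calls depends on scaling: with the size factors of DESeq2 the calls were 803 higher and 799 lower for H3K4me3 against CTCF, and with TMM 804 higher and 807 lower for H3K27ac against Pol2S2P. The groups did not overlap at either cell number in 506 of the higher and 664 of the lower windows for H3K4me3 against CTCF, and in 482 and 732 for H3K27ac against Pol2S2P.

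**Figure D4:**
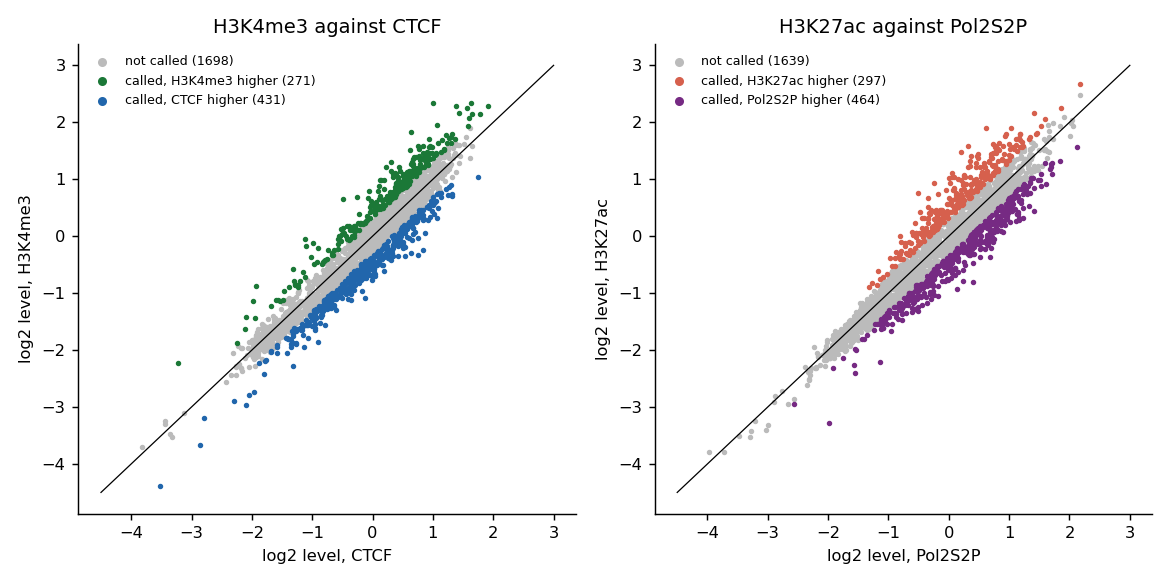
Log2 level of each of 2400 windows in one target (vertical axis) against the other target of its staining (horizontal axis), means of the dual groups, with the line of equality. Coloured windows passed an adjusted p of 0.05 and differed by at least 25%, 702 for H3K4me3 against CTCF and 761 for H3K27ac against Pol2S2P, and lie in bands along both sides of the common diagonal.

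Calls between H3K4me3 and CTCF split by gene content. In windows with over 20 genes H3K4me3 was higher in 147 of 239 and lower in 33, at a median log2 fold change of 0.19, while in windows with 1 to 5 genes it was higher in 180 of 949 and lower in 490, at -0.14. The strongest H3K4me3 window was at 5 to 6 Mb of chromosome 19, a gene-dense stretch with Pacs1, Frmd8 and Pcnx3 that also holds the nuclear non-coding RNA genes Malat1 and Neat1. H3K4me3 libraries had 4.62 to 5.86 times the mean there (median 4.98) and CTCF libraries 1.90 to 2.07 (median 2.02), a log2 fold change of 1.34 ± 0.037 (SE, adjusted p = 3.98e-45). Without the strongest bins, the top 1% of each target and together 2.56% of the eligible bins, the fold change was 0.49. The same holds for 3 further windows of this list, on chromosome 11 at 58 Mb (Larp1; 1.20, and 0.35 without those bins), chromosome 17 at 23 Mb (Srrm2; 1.15 and 0.46) and chromosome 13 at 23 Mb (the histone gene H2bc6; 1.01 and 0.41). The window at 5 to 6 Mb of chromosome 3, with the developmental homeobox gene Zfhx4, had 2 genes only and a fold change of 1.05 ± 0.055.

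The windows named for CTCF over H3K4me3 were of several kinds. At 92 to 93 Mb of chromosome 3, with the skin-barrier genes Lce6a and Pglyrp3, H3K4me3 had 0.692 to 0.849 times the mean and CTCF 1.55 to 1.78, a fold change of -1.08 ± 0.060 (adjusted p = 8e-27). Cacna2d1, a calcium channel subunit gene, marked a window of chromosome 5 at 15 Mb with -1.01, and Kif6 and Daam2 one of chromosome 17 at 49 Mb with -0.98. Windows of the major urinary protein genes (chromosome 4 at 61 Mb) and of Dydc1 and Dydc2 (chromosome 14 at 41 Mb) followed with -0.95 and -0.93, at low levels of 0.277 and 0.207 times the mean in H3K4me3 against 0.532 and 0.402 in CTCF.

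H3K27ac exceeded Pol2S2P most on chromosome 10, in 2 adjacent windows that are poor in genes. From 16 to 17 Mb, which holds no coding gene, H3K27ac libraries had 3.42 to 3.88 times the mean (median 3.78) and Pol2S2P libraries 1.45 to 1.64 (median 1.52), a log2 fold change of 1.29 ± 0.031 or 2.45-fold (adjusted p = 6.81e-48). From 17 to 18 Mb, with Heca and Txlnb, H3K27ac was 2.39-fold higher. The other 3 named windows were at 145 Mb of chromosome 7 (Tpcn2, a lysosomal channel; 2.37-fold), at 27 Mb of chromosome 13 (21 genes, with the prolactin-family gene Prl3a1; 2.37-fold) and at 52 Mb of chromosome 13 (Auh, and Syk, a signalling kinase; 2.25-fold).

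Pol2S2P exceeded H3K27ac most over Diaph3, a long gene for a formin that nucleates actin filaments. From 86 to 87 Mb of chromosome 14 H3K27ac libraries had 0.50 to 0.609 times the mean and Pol2S2P libraries 1.08 to 1.49 (median 1.34), a fold change of -1.23 ± 0.048 (adjusted p = 3.15e-35). The next window, with the rest of Diaph3 and Tdrd3, gave -1.02 ± 0.044. The 5 windows on the side before them, from 81 to 86 Mb, lay at log2 levels of -1.86 to -1.45 in Pol2S2P. The window after them lay at -1.78, so these 2 windows stood out of a low stretch. They did so in every target. H3K27ac lay at -0.81 and -0.78 in them, against -1.83 just before and -1.98 just after. H3K4me3 lay at -1.13 and -0.77, against -1.88 and -2.08. CTCF was also higher in both than in these neighbours. Pol2S2P alone was above the mean in them, at 0.39 and 0.23. Chd8 and Supt16 marked a further window (chromosome 14 at 52 Mb, -1.06, but -0.47 with bins over 20 kb from gene ends).

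At 1000 cells, where all 4 targets were stained, each target was set against the mean of the other 3. These 4 contrasts share their libraries and are given side by side. H3K4me3 was higher in 643 windows (26.8%) and lower in 469 (19.5%), with 380 (15.8%) differing by at least 25%. CTCF was higher in 1048 (43.7%) and lower in 631 (26.3%), with 695 (29%) past that size. H3K27ac was higher in 553 (23%) and lower in 1163 (48.5%), with 837 (34.9%) past it. Pol2S2P was higher in 661 (27.5%) and lower in 854 (35.6%), with 395 (16.5%) past it. Directions again moved with scaling: by DESeq2 the calls were 442 higher and 544 lower for H3K4me3, 738 and 806 for CTCF, 722 and 790 for H3K27ac, and 692 and 675 for Pol2S2P. For H3K27ac the median fold change over all windows was -0.11 by the autosomal mean and -0.01 by DESeq2.

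The H3K4me3-specific windows were led by the histone gene cluster of chromosome 13. At 21 to 22 Mb, with 17 histone genes among 42 coding genes, H3K4me3 libraries had 2.08 to 2.98 times the mean, against 1.13 to 1.35 in CTCF, 0.646 to 0.771 in H3K27ac and 0.679 to 0.826 in Pol2S2P. The fold change against the other 3 was 1.32 ± 0.067, and 0.86 without the strongest bins. At 23 to 24 Mb, with 31 histone genes among 53, it was 1.28 ± 0.067, and 0.48 without those bins. The replication-dependent histone genes are short and intronless, so some bins over 5 kb from an end lie between genes of the cluster. The window with Gnas, an imprinted signalling gene, and Zfp831 (chromosome 2 at 174 Mb) followed at 0.93. H3K4me3 was lowest relative to the others in windows with Trp63 and P3h2 (chromosome 16 at 25 Mb, -0.73), Cdh18 (-0.72) and Wdr35 (-0.71).

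CTCF was higher than the other 3 targets over the low windows of chromosomes 4 and 14 named above and at 67 Mb of chromosome 11 (1.08 ± 0.050; 1.39 to 1.49 times the mean against 0.584 to 0.936 in dual libraries of the other targets), a window with Gas7 that also holds the skeletal myosin genes Myh3 and Myh2. Its lowest fold change was at 62 to 63 Mb of chromosome 15 (-1.28 ± 0.031, adjusted p = 4.15e-64), with -1.04 in the Pacs1 window of chromosome 19 (-0.42 without the strongest bins), -0.95 in that with Lpp, an adhesion-plaque protein gene (chromosome 16 at 24 Mb), and -0.94 in that with the cell-cycle kinase gene Cdk6 (chromosome 5 at 3 Mb).

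The window at 62 to 63 Mb of chromosome 15 has no protein-coding gene and 979 eligible bins, and lies beside Myc, the growth-control transcription factor, which sits at the end of the window before it. Its annotated genes are non-coding, the longest being Pvt1, a 222 kb long non-coding RNA gene. H3K27ac libraries had 6.22 to 6.57 times the mean there (median 6.36), Pol2S2P 4.36 to 4.75 (median 4.53), H3K4me3 2.78 to 3.16 (median 3.00) and CTCF 1.71 to 1.90 (median 1.79). The 4 targets do not overlap. H3K27ac exceeded the mean of the others by 1.11 ± 0.025 (adjusted p = 2.19e-66), and by 1.15 without the strongest bins. The window with Myc itself stood at 1.77 times the mean over the targets, with 2.79 to 3.10 in H3K27ac and 1.14 to 1.81 in dual libraries of the other targets.

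**Figure D5:**
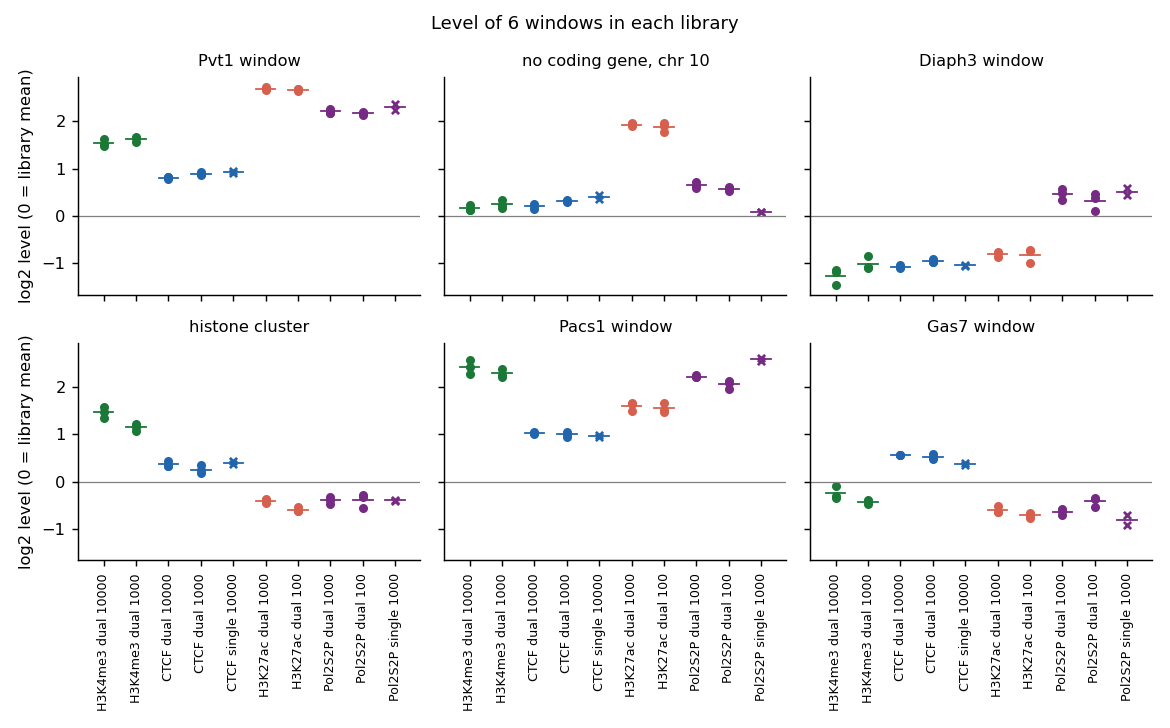
Log2 level (vertical axis, 0 is the library mean) in each library of the 10 groups for 6 windows, points for dual and crosses for single stainings, bars at group means. H3K27ac is highest in the Pvt1 window and the gene-free window of chromosome 10, Pol2S2P in the Diaph3 window, H3K4me3 in the histone cluster and CTCF in the Gas7 window.

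H3K27ac-specific windows beyond these were the window at 16 to 17 Mb of chromosome 10 (1.52 ± 0.030), the prolactin-family window of chromosome 13 (1.36 ± 0.051) and windows at 5 Mb of chromosome 13 (1.23) and with the growth factor gene Pdgfd (chromosome 9 at 6 Mb, 1.13). H3K27ac was low relative to the others with Dido1 and Lama5 (chromosome 2 at 180 Mb, -0.87). In windows with over 20 genes it was lower in 170 of 239 (71.1%), against 48.5% of all windows. Pol2S2P-specific windows were those of Diaph3 (1.38 ± 0.046 and 0.94 ± 0.046), Snd1 (chromosome 6 at 28 Mb, 0.90), the exocyst gene Exoc4 (chromosome 6 at 33 Mb, 0.79) and the imprinted neighbours Ube3a and Snrpn (chromosome 7 at 59 Mb, 0.78). In the Snd1 window Pol2S2P libraries had 2.13 to 2.38 times the mean, against 0.992 to 1.39 in dual libraries of the other targets. Pol2S2P was low with the glucose transporter gene Slc2a3 (-0.83), the histone cluster at 23 Mb of chromosome 13 (-0.80) and the natural killer receptor cluster with Klra17 and Klre1 (-0.76).

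Genes of 5 lists were placed in their windows to describe levels by function, not to test them. All 12 windows with genes of matrix and cytoskeleton, which myoblasts make in quantity, lay above the mean, at a median of 1.79 times against 0.918 over all windows. They included Myh9 (4.42 times), Actg1 (2.33), Col1a1 (2.18) and Vim (2.03). H3K27ac was higher than Pol2S2P in 7 of these 12 and lower in 2, against 26.7% and 40.4% over all windows. Of 20 windows with long genes of neural adhesion and synapse, 2 were above the mean and the median was 0.450 times from low levels such as Lrp1b (0.31) and Erbb4 (0.32) up to Cdh13 (1.12) and Nrg1 (1.08). Most of these windows hold 1 gene, and relative to windows of like gene content their median log2 level was -0.66.

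Windows of growth genes had a median of 1.40 times the mean, with 15 of 20 above it. Those with Cdk4 (2.52), Fgfr1 (2.40), Mdm2 (2.19) and Met (2.07) were over 2-fold, and the 5 below the mean were those with Mycn (0.36), Ccne1 (0.60), Tert (0.69), Yap1 with Birc2 (0.69) and Pdgfra (0.71). Windows of growth suppressors gave 10 of 13 above the mean and a median of 1.62 times, with Nf1 (2.89), Cdkn2a and Cdkn2b in one window (2.71) and Trp53 (2.59) the highest and Fhit, a large fragile-site gene, the lowest (0.29). The Cdkn2a window had 4.21 to 4.84 times the mean in H3K27ac, 2.55 to 2.71 in Pol2S2P, 2.40 to 2.64 in H3K4me3 and 1.74 to 1.95 in CTCF, and was followed on the chromosome by a window at a log2 level of -1.26. Bins at 0 in all libraries were left out, so a stretch without reads inside this window would not lower its level. It had 739 eligible bins and 4 genes, against 864 bins in the window at 83 to 84 Mb, also with 4 genes. Eligible bins differ between windows of equal gene number, as with 533 (chromosome 7 at 39 Mb) and 821 (chromosome 10 at 13 Mb) at 9 genes. Whether a stretch of the Cdkn2a window lacks reads was not tested. Whether the listed genes themselves are covered was not tested. Muscle gene windows gave 12 of 18 above the mean, against 45.8% of all windows, at a median of 1.18 times. Relative to windows of like gene content the median log2 level was -0.07 for muscle genes, 0.32 for growth genes, 0.37 for growth suppressors and 0.62 for matrix and cytoskeleton genes. Mef2d (2.67), Tnni1 (2.44) and Acta1 (2.22) were above 2-fold, Myf5 with Myf6 stood at 1.77 and Myod1 at 0.95. CTCF was higher than the mean of the other targets in 11 of these 18 windows and lower in 4, against 43.7% and 26.3% over all windows.

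The number of cells changed few windows. At 10000 against 1000 cells in H3K4me3 and CTCF, 113 windows were higher (4.71%) and 185 lower (7.71%), and 21 (0.875%) differed by at least 25%. By DESeq2 the split was 215 higher and 107 lower. Of the 185 lower ones, 70 were windows without a coding gene. These were 26.1% of the 268 windows without a coding gene, against 7.71% lower over all windows. The median fold change of those 268 windows was -0.14. Among the named windows the largest fold change was at 3 to 4 Mb of chromosome 9, the first window used on that chromosome (-0.62 ± 0.052, adjusted p = 2.31e-15), followed by 98 to 99 Mb of chromosome 2 (-0.33). The higher ones were small, at most 0.21 among those named (the window with Gpc6, a heparan sulphate proteoglycan gene).

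At 1000 against 100 cells in H3K27ac and Pol2S2P, 25 windows were higher (1.04%) and 50 lower (2.08%), with 6 (0.25%) past 25%, and the split by DESeq2 was 154 and 32. The window with Col19a1 and Lmbrd1 (chromosome 1 at 24 Mb) was lower by -0.44 ± 0.040, but by -0.07 and no longer past the threshold without the strongest bins. These counts moved with single libraries. For H3K27ac at 1000 cells, 19 windows were called without replicate 2 and 43 without replicate 3, and at 100 cells 34 without replicate 1 and 171 without replicate 3. For Pol2S2P at 1000 cells there were 46, 38 and 34 calls without replicates 1, 2 and 3, and at 100 cells 47 without replicate 2. For 10000 against 1000 cells they were 175 without replicate 3 of CTCF at 1000 cells and 180 without replicate 3 of CTCF at 10000 cells.

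Dual and single CTCF differed by little in any window, whereas dual Pol2S2P had a flatter relief than single Pol2S2P. Dual CTCF was higher than single CTCF in 196 windows (8.17%) and lower in 189 (7.88%), and 0 (0%) differed by at least 25%, the largest named fold change being 0.26 in the Gnas and Zfp831 window. At an unadjusted p under 0.05 edgeR gave 706 windows. DESeq2 called 30 higher and 51 lower, again 0 of them by at least 25%. Without replicate 2 of dual CTCF 242 windows were called in all, and without replicate 2 of single CTCF 166. Dual Pol2S2P was higher than single Pol2S2P in 1033 windows (43%) and lower in 601 (25%), with 820 (34.2%) past 25%, and by DESeq2 in 797 and 740.

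The Pol2S2P difference followed gene content. Dual Pol2S2P was higher in 262 of 268 windows without a coding gene (97.8%, against 43% of all windows), at a median fold change of 0.70. It was lower in 136 of 239 windows with over 20 genes (56.9%, against 25% of all windows), at -0.14. In windows without a gene the mean log2 level was -1.40 ± 0.027 in dual libraries of 1000 cells (n = 3) and -2.06 ± 0.014 in single ones (n = 2). The spread of levels over windows, as an SD, was 1.00 ± 0.014 in dual and 1.31 ± 0.004 in single libraries, against 0.89 to 1.05 in the other groups. The largest excess in dual libraries was in an olfactory receptor cluster at 13 to 14 Mb of chromosome 19, where all 33 genes are receptors (1.26 ± 0.137, adjusted p = 1.4e-12), followed by windows with Mgmt (1.09), with vomeronasal receptors beside Folh1 (1.09) and with olfactory receptors at 103 Mb of chromosome 7 (1.08). The windows most in favour of single staining were gene-dense, led by Nfic and Pip5k1c (chromosome 10 at 81 Mb, -0.75 ± 0.068), Wdfy4 and Arhgap22 (-0.57), and Dot1l and Sbno2 (-0.52). For CTCF, windows without a gene averaged -1.36 ± 0.017 in dual libraries of 10000 cells and -1.34 ± 0.038 in single ones, and the SD over windows was 0.92 ± 0.008 and 0.93 ± 0.016. Single libraries held a smaller share of eligible counts for Pol2S2P (68.9% and 69.3%, against 76.1% to 76.6% at the same cell number in dual ones), and the part of this in the result was not tested.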

How the data were processed

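The authors deposited whole-number read counts per 1 kb bin of GRCm38, one column per library, and the matrix was used as deposited. The submitters' processing notes name bcl2fastq, HISAT2 2.1.0 and deepTools 3.3.1, without saying how reads with several matches were treated. Of 34 samples, 28 were matched to a column by name, 6 were not analysed here and 4 columns were not used. Each library had 719766 to 6653298 counts on chromosomes 1 to 19 and X.

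Gene positions came from RefSeq (GRCm38.p6, 21631 protein-coding genes on these chromosomes). Bins at 0 in all 28 libraries and 9 bins with over 50 times the mean density in every group were left out. Levels used a pseudocount of 0.5 counts per window. Windows were tested with edgeR 4.0.16 (quasi-likelihood, Benjamini-Hochberg adjustment over 2400 windows, eligible autosomal counts as library sizes), with terms for the target, cell number or staining compared, and called at an adjusted p under 0.05; the model was tested on simulated data. Chromosome, class and step values were compared by exact permutation tests within cell numbers. DESeq2 1.42.0, TMM, other distances, bins and step spans, left-out replicates and replicate blocks were alternatives. Analyses ran in R 4.3.3 and Python 3.11.15.

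Windows named in the text are, per test, the 5 most changed upward and the 5 most changed downward of the called windows whose groups do not overlap, if all libraries of the higher group had 100 counts or more, then the 10 highest and 10 lowest, those beside steps and those with listed genes. A few windows that this rule names are not reported here. Up to 3 genes are given per window, those with most eligible bins in it, and Pvt1, Malat1, Neat1 and the histone genes were added after values were seen. The windows, gene lists and tests were chosen with earlier results of these data known. Deviations of H3K27ac and Pol2S2P libraries with the same replicate number correlated at 0.108 to 0.294 over windows, in every pair above 0.1, so these numbers were taken as pairs. Titles and column names give both targets of a dual staining the same numbers, also for H3K4me3 and CTCF. The main window tests and exact stratified permutation tests treat libraries as independent, so their p-values leave this pairing out. The replicate blocks keep it. With 2 or 3 libraries per group, spread between libraries limits the precision, and counting error is smallest in the deepest CTCF libraries.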

Additional observations from a re-analysis of the deposited data

Results flagged for a closer look

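The difference between H3K4me3 and CTCF depended on the number of cells in 11 of 2400 windows by edgeR's quasi-likelihood test of the interaction (adjusted p under 0.05), against 368 at an unadjusted p under 0.05. H3K4me3 minus CTCF was higher at 10000 than at 1000 cells in 6 of them. These were led by the windows of chromosome 15 at 85 Mb (Atxn10, Celsr1; 0.25 ± 0.053, SE, log2, adjusted p = 0.00828) and 102 Mb (Atf7, Sp1; 0.26 ± 0.055), both among the 10 highest autosomal windows, and that of chromosome 7 at 89 Mb (Tmem135, Me3; 0.32). H3K4me3 was above CTCF at both cell numbers in 3 of the 6. In the others, at 78 Mb of chromosome 15 the difference was -0.24 at 10000 cells and -0.55 at 1000 cells, at 89 Mb of chromosome 1 -0.50 and -0.76, and at 89 Mb of chromosome 7 0.21 and -0.10. It was lower at 10000 cells in 5, among them the gene-free windows of chromosome 18 at 17 Mb (-0.63) and 83 Mb (-0.41) and the window of chromosome 12 at 12 Mb (-0.60), which holds Mycn. For H3K27ac against Pol2S2P edgeR called the interaction in 0 windows; at an unadjusted p under 0.05 there were 106.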

How the results depend on the processing

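Of the counts of calls recomputed under the alternatives, 428 stayed within 1.5 times of the value reported and 31 did not; of the single values, 3599 kept their call or moved within the spread, 55 moved, 88 lost and 19 gained a call, and 11 changed sign. For 10000 against 1000 cells 178 windows were called without the strongest bins, and 175 to 402 with 1 replicate left out. For 1000 against 100 cells the calls were 119 with TMM, 186 with DESeq2, 118 without the strongest bins and 19 to 171 with 1 replicate left out. For dual against single CTCF they were 81 with DESeq2, 246 without the strongest bins and 166 to 312 with 1 replicate left out. Left-out replicates gave 1575 to 1685 calls for H3K4me3 against CTCF and 1553 to 1615 for H3K27ac against Pol2S2P, and against the other targets 883 to 1121 (H3K4me3), 1546 to 1687 (CTCF), 1578 to 1731 (H3K27ac) and 1358 to 1540 (Pol2S2P). For dual against single Pol2S2P they gave 1382 to 1594. The cause of these changes was not tested.

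Left-out replicates gave 10 to 12 and 14 to 17 differing chromosomes, 4 to 5 and 3 to 5 gene classes, 82 to 85 shared steps, 87 to 88 and 90 to 92 held-out steps, and 30 to 44 and 46 to 54 steps differing in size. Without the strongest bins 7 chromosomes differed between H3K27ac and Pol2S2P. Bins over 20 kb from gene ends left 2 classes for H3K4me3 against CTCF. Spans of 5 windows gave 160 shared steps, 186 and 179 held-out ones, and 92 and 94 differing in size, each pair of counts with H3K4me3 and CTCF first; the level relative to like gene content with spans of 30 gave 22. Same-numbered H3K4me3 and CTCF libraries correlated at 0.087 to 0.266, not in every pair above 0.1, so the correlations alone do not pair them. Their titles and column names do give them the same dual staining and number. In both stainings each of 12 libraries correlated best with its own number, as a hint from the data. With the replicate block 0 chromosomes passed for H3K4me3 against CTCF, 0 classes for H3K27ac against Pol2S2P and 0 step sizes for both pairs. The exact sign-flip test used there has a smallest unadjusted p of 0.03125. By window the block gave 1640 calls for H3K4me3 against CTCF and 1672 for H3K27ac against Pol2S2P.

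Some values changed sign. Chromosome 11 gave -0.11 (H3K4me3 against CTCF) and chromosome 7 -0.14 (H3K27ac against Pol2S2P) with bins over 20 kb from gene ends, as did windows with 1 to 5 genes at -0.036. Without the strongest bins H3K27ac minus Pol2S2P was 0.018 on chromosome 1 and 0.0040 on chromosome 3, H3K4me3 minus CTCF was 0.011 with 6 to 20 genes, the chromosome 17 window at 39 Mb was -0.063 for dual against single CTCF, and the level of chromosome 16 was 0.063. With bins at 0 counted, H3K4me3 minus CTCF was 0.18 in windows without a gene, where 67 further windows enter, 64 of them under 100 counts in every library. Relative to like gene content chromosomes 1, 3, 16, 17 and 18 stood at 0.078, 0.0088, 0.20, 0.0035 and 0.032, against values below 0 without it.

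No library without an antibody was analysed, so copies, mappability and open chromatin cannot be told apart in the shared relief. Depth limits H3K4me3 at 1000 cells most.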
